A study of Tupaia belangeri with 15 samples.

Results

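Microglia of the tree shrew (Tupaia belangeri, TS) retina were examined in single-nucleus RNA sequencing (snRNA-seq) of 15 retinas, 5 each labelled Infancy, Mature and Senile. The labels name no genotype, strain or treatment, and give age only as the stage. Infant and mature TSs came from one supplier and senile TSs from another, as the methods state, so senility and supplier cannot be told apart. Nuclei were chosen by their own transcripts. Between 200 and 6000 detected genes (both excluded) and a mitochondrial share below 5% left 119765 nuclei, of which 1048 carried at least 1 unique molecular identifier (UMI, a counted transcript molecule) of 2 or more of 7 genes (CSF1R, PTPRC, P2RY12, CX3CR1, C1QA, DOCK2 and APBB1IP) and no UMI of 5 genes of other retinal cells (GAD1, GAD2, ARR3, RBPMS and RLBP1). Of the 5 barring genes, GAD2 was listed at 0 UMIs over all barcodes and GAD1 at 650. GAD2 could therefore bar no nucleus, and GAD1 only few. Doublets were not removed by score. Among the libraries, 7 (3 infant, 2 mature and 2 senile) were labelled polyA RNA and 8 total RNA, and the totals ran from 13429873 to 58734300 UMIs per library. Of 117976 distinct barcodes, 1768 occurred in more than 1 retina, and 1 of these was an admitted nucleus in more than 1.

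Microglia are the resident macrophages of the retina and brain. They derive from yolk sac progenitors, depend on signalling through the CSF1 receptor, watch their surroundings through purinergic receptors such as P2RY12 and the fractalkine receptor CX3CR1, and make the C1q proteins that tag synapses and debris in the classical complement pathway. In the healthy retina they lie mainly in the plexiform layers, clear dying cells and outer segment debris, and in other mammals they change shape and state with age.

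The admitted nuclei were of different kinds, and mainly those with 3 or more of the 7 genes carried other microglial markers (the plot of label support). Of the 503 nuclei with exactly 2 of the 7 genes, 60 (11.9%) had 2 or more of 9 further microglial genes that the rule did not use (INPP5D, C1QB, C1QC, AIF1, SPI1, TYROBP, CD74, IKZF1 and ITGAM), and 415 had none. With 3 admitting genes the share was 76.1% of 138 nuclei, and with 4 to 7 genes it lay between 92.5% and 97.9%. Among all other nuclei it was 0.345% of 118717. A UMI of any of 23 neuron and photoreceptor genes was found in 89.5% of the nuclei with exactly 2 genes, 43.1% of the 545 nuclei with 3 or more, and 95.9% of all other nuclei. Just outside the threshold, 0.372% of 6458 unbarred nuclei with 1 admitting gene had 2 or more of the further genes.

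**Figure D1:**
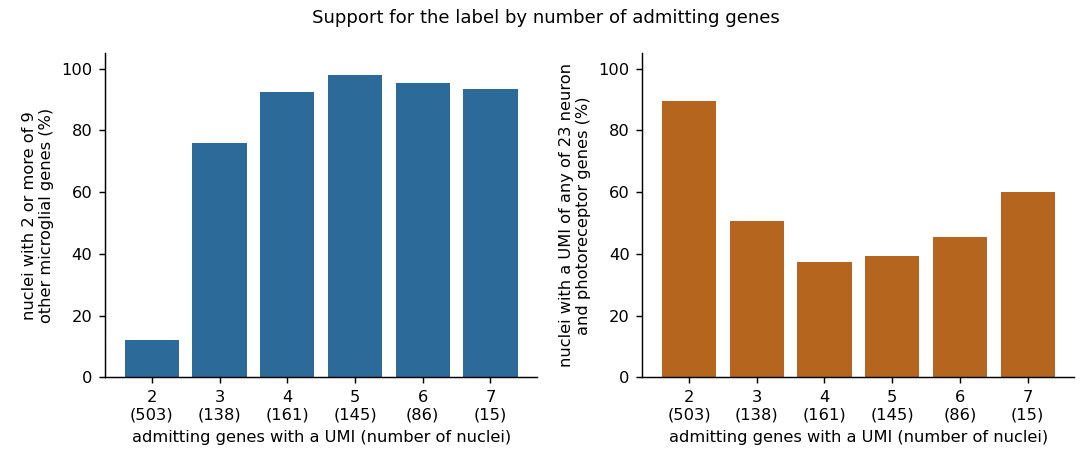
Left, the share of admitted nuclei with 2 or more of 9 further microglial genes (percent, y axis) against the number of admitting genes with a UMI (x axis, number of nuclei in brackets); right, the share with a UMI of any of 23 neuron and photoreceptor genes. Bars show the nuclei of all 15 retinas together; the left share is 11.9% at 2 genes and 76.1% at 3, and the right share is 89.5% at 2 genes and 50.7% at 3.

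The pair of genes that admitted a nucleus differed accordingly. In 334 of the 503 nuclei with exactly 2 genes, both were among PTPRC (the leukocyte phosphatase CD45), P2RY12 and DOCK2 (an activator of Rac in blood cells), and 1 of those 334 had 2 or more of the further genes. Of the 169 nuclei admitted by another pair, 59 (34.9%) had them. PTPRC, P2RY12 and DOCK2 each had a UMI in 2.46%, 4.17% and 5.01% of the nuclei outside the class, while CSF1R had one in 0.502% and CX3CR1 in 0.203%. Median depth was 4047 UMIs in the nuclei with exactly 2 genes, 1390 in those with 3 or more and 2920 in the others. Because the data go against the label for most nuclei with exactly 2 genes, the 545 nuclei with 3 or more are called microglia-like here, and the main comparisons of shares and genes are given for both sets. The microglia-like nuclei numbered 45 to 58 per infant retina, 6 to 48 per mature retina and 18 to 31 per senile retina. Mature 5, with 6, was left out of the fits and ratios of the microglia-like nuclei, which therefore rest on 14 retinas.

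Genes of other immune cells were counted in the same way, although several that define them were listed at 0 over all barcodes (CD163 and SIGLEC1 of border macrophages, NKG7, GZMB, KLRB1 and THEMIS of T or NK cells and CD79B of B cells), so the counts do not bound how many such cells there were. Among the 545 microglia-like nuclei, 15 had 2 or more of the 8 border macrophage genes in the files, 8 had 2 or more of 14 T or NK cell genes, 1 had 2 or more monocyte or neutrophil genes and none had 2 or more B cell genes. At least 1 border macrophage gene was found in 11.2% of these nuclei and 15.1% of all other nuclei, and 2 or more in 2.75% and 0.644%. CD2, best known as a T cell adhesion receptor, had a UMI in 165 microglia-like nuclei (30.3%), in all 15 retinas, against 118 of the 118717 other nuclei.

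Against all other nuclei of the same retina, the microglia-like nuclei were highest in receptors and signalling genes of myeloid cells (the plot of the 25 leading genes). These ratios describe how the nuclei were chosen and were not tested. Ratios are of CPM (a gene's UMIs scaled to a common total per retina) plus 1, on the log2 scale. CSF1R (TSDBGID.12541), the receptor that microglia need to survive, had a median log2 ratio of 8.37 over 14 retinas and a range of 6.31 to 9.82, at a mean of 1044 CPM ± 594 (SD). CX3CR1 had a median of 8.03, and the 2 admitting genes PTPRC and APBB1IP, an adaptor between integrins and actin, had 7.16 and 7.61. P2RY12 reached 5.21 and DOCK2 4.40.

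Genes outside the rule stood as high. INPP5D (TSDBGID.4897), the phosphatase SHIP1 that limits immune receptor signalling, had a median log2 ratio of 8.24 and a range of 7.56 to 9.27, narrower than that of CSF1R. IKZF1, a transcription factor of blood cells, had 8.12 (7.16 to 8.71). CYTL1, a secreted cytokine-like protein, had 8.26 and the widest range of the first 3, 5.37 to 10.2. PLA2G4A, which frees arachidonic acid from membranes, had 7.75. ITGAM, the integrin CD11b, had 7.76, TIMD4, a receptor for phosphatidylserine on dying cells, 7.55, and TLR4, the endotoxin receptor, 7.33. The co-stimulator CD86 had 7.13, the UDP receptor P2RY6 7.27 and the homeobox gene HOXB7 6.93. In the nuclei with exactly 2 genes, the medians of the same 25 genes ran from -0.44 to 4.38.

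**Figure D2:**
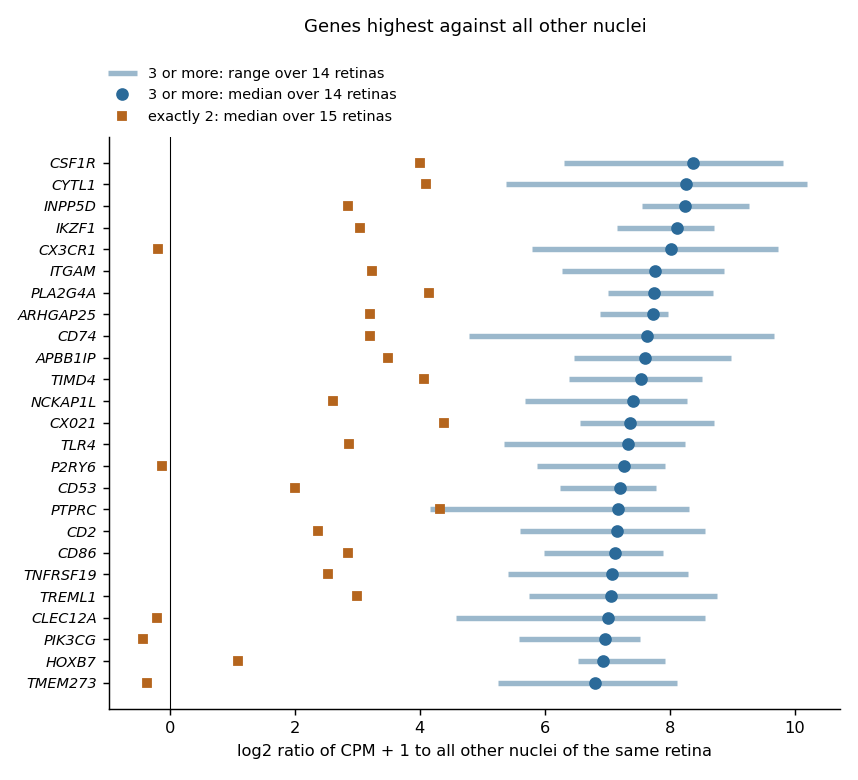
The 25 genes with the highest median log2 ratio of CPM plus 1 to all other nuclei of the same retina (x axis) in the microglia-like nuclei, with the range over 14 retinas as bars and the median as circles; squares show the median in nuclei with exactly 2 admitting genes over 15 retinas. Only genes with at least 50 CPM in every retina used were ranked, without LINC, antisense or numbered copies. Circles lie between 6.80 and 8.37 and squares between -0.44 and 4.38.

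Over all 1048 admitted nuclei the same rule named 25 genes of which 11 were shared. INPP5D led with a median log2 ratio of 7.15 (5.57 to 8.82 over 15 retinas), followed by CSF1R with 6.95, CX3CR1 with 6.89 and IKZF1 with 6.83. Genes found only in this list included RUNX1 with 4.92, LYN, a Src family kinase, with 5.15, BLNK, an adaptor of immune receptor signalling, with 5.19, TBXAS1, thromboxane synthase, with 5.60, and MERTK, the receptor kinase with which phagocytes engulf apoptotic cells and outer segments, with 3.79. The median over the 25 genes was 2.19 in the nuclei with exactly 2 genes and 6.58 in the microglia-like nuclei.

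The groups of microglial genes differed in how many members stood 10-fold above the rest. These counts describe nuclei chosen by 7 of the genes, some of which are in the lists. Of 10882 features with 10 or more UMIs in the microglia-like nuclei, 758 (6.97%) were at least 10-fold above all other nuclei. Among the 19 homeostatic and identity genes in the files, 16 had 10 or more UMIs and 13 were 10-fold higher, among them LRMDA at 1830 CPM against 48.7 in other nuclei, TAL1 at 401 against 0.791 and P2RY13, an ADP receptor, at 166 against 0.952. Of 18 genes in the list of myeloid transcription factors, 16 reached 10 UMIs and 10 were 10-fold higher. MEF2C was the most abundant, at 2608 CPM against 262. HDAC9, a histone deacetylase kept in that list, followed at 2233 against 730, and neither reached 10-fold. SPI1, the master regulator PU.1, was at 129 CPM against 0.439, and IRF8, which myeloid cells need to mature, at 198 against 0.988.

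The cytoskeletal and immune receptor signalling group was the largest, with 36 of 38 genes at 10 UMIs or more and 30 at 10-fold or more. Its leading members were DOCK4 at 3394 CPM against 257 and ELMO1, the partner of DOCK proteins in engulfment, at 2993 against 162. Of 33 phagocytosis, lysosome and lipid genes, 23 reached 10 UMIs and 13 were 10-fold higher. MERTK was at 837 CPM, the lysosomal proteases CTSD and CTSC at 558 and 508, and HAVCR2, the checkpoint receptor TIM-3, at 554. Of 27 inflammatory genes, 15 reached 10 UMIs and 9 were 10-fold higher, led by PLA2G4A at 529 and TBXAS1 at 415 CPM. In the interferon group the counts were 11 and 3 of 21, in the antigen presentation group 8 and 6 of 13, in the group of purinergic, chemokine and checkpoint receptors 14 and 10 of 20, in the complement group 6 and 3 of 12, in the proliferation group 3 and 2 of 21, in the immediate early and stress group 6 and 2 of 13, and among genes of ageing microglia in other mammals 13 and 7 of 24.

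Some familiar microglial genes were listed at 0. TMEM119, CD68, C3, CST7, FTH1 and FTL had no UMI in any nucleus, so for these features no level can be read. TREM2 was not found under its symbol and is not analysed here. C1QC had 3 UMIs, against 656 of C1QA and 860 of C1QB.

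Single genes of division and activation were counted per nucleus at a median of 1390 UMIs, at which a missing UMI does not show that a gene was off. MKI67, CCNB1, RRM2 and TPX2 were listed at 0 over all barcodes. TOP2A or CENPF, genes of dividing cells, had a UMI in 10 of 545 (1.83%) from 7 retinas, 4 of them in Infancy 2, and both genes in 5. IL1B, the inflammatory cytokine, had a UMI in 29 nuclei (5.32%) of 11 retinas, and in 36 of the 118717 other nuclei. JUNB, an immediate early gene, had a UMI in 61 nuclei (11.2%), and JUNB and IER2 were found together in 14, 5 of them in Infancy 5 and 3 in Mature 4. GPNMB, a marker of lipid-laden phagocytes, had 47 UMIs in 5 nuclei of Mature 3, Mature 4 and Senile 3. F13A1, a border macrophage gene, had a UMI in 22 nuclei, 9 of them in Mature 4. The border macrophage genes summed to 29.9 to 46.1 CPM in infant, 16.8 to 504 in mature and 49.0 to 1062 in senile microglia-like nuclei, and their part in any stage difference was not tested. In all other nuclei together the same genes summed to 96.2 CPM.

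A further group of genes split by the library label (the plot of levels by library label). The methods describe the library kit without setting such kinds apart, so polyA and total RNA libraries here mean the labels only. In the microglia-like nuclei, C1QA stood at 2170, 2555 and 1613 CPM in Infancy 1 to 3, 608 and 681 in Mature 1 and 2, and 652 and 1815 in Senile 1 and 2, all labelled polyA RNA. In the libraries labelled total RNA it stood at 132 and 19.9 CPM in Infancy 4 and 5, at 143 and 84.0 in Mature 3 and 4, and at 1205, 31.2 and 39.7 in Senile 3 to 5. Senile 3 alone of the total RNA libraries lay within the range of the polyA libraries, and without it the groups of libraries did not overlap. Senile 3 was set aside after its values were seen. How many of all features split the libraries in this way was not counted. C1QA had a UMI in 68.5% of 295 microglia-like nuclei of the polyA libraries and in 18.4% of 250 of the total RNA libraries, although the median depth was 900 UMIs in the first and 2279.5 in the second. C1QA is an admitting gene, so its level and share in these nuclei depend in part on the rule.

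The same split held for C1QB, CYTL1, B2M and TOMM40 in the microglia-like nuclei, and CD74 followed it with an overlap, since Mature 2 (polyA RNA) was at 497 CPM and Mature 4 (total RNA) at 521. The median of the 6 total RNA libraries other than Senile 3, and the value in Senile 3, were 111 and 1181 CPM for C1QB, 287 and 2126 for CD74, 701 and 3826 for CYTL1, 176 and 1795 for B2M, the light chain of class I molecules, and 1454 and 22486 for TOMM40. INPP5D and MEF2C did not split in this way: INPP5D was at 458 to 1467 CPM and MEF2C at 1309 to 3998 over all 14 retinas. TOMM40, a subunit of the outer mitochondrial import pore, is listed directly before APOE in the feature list, and had 132834 UMIs over all barcodes while APOE had 5. Whether transcripts of APOE were counted as TOMM40 was not tested. Every stage had libraries of both labels, and the header's Cell Ranger version split the libraries in the same way.

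**Figure D3:**
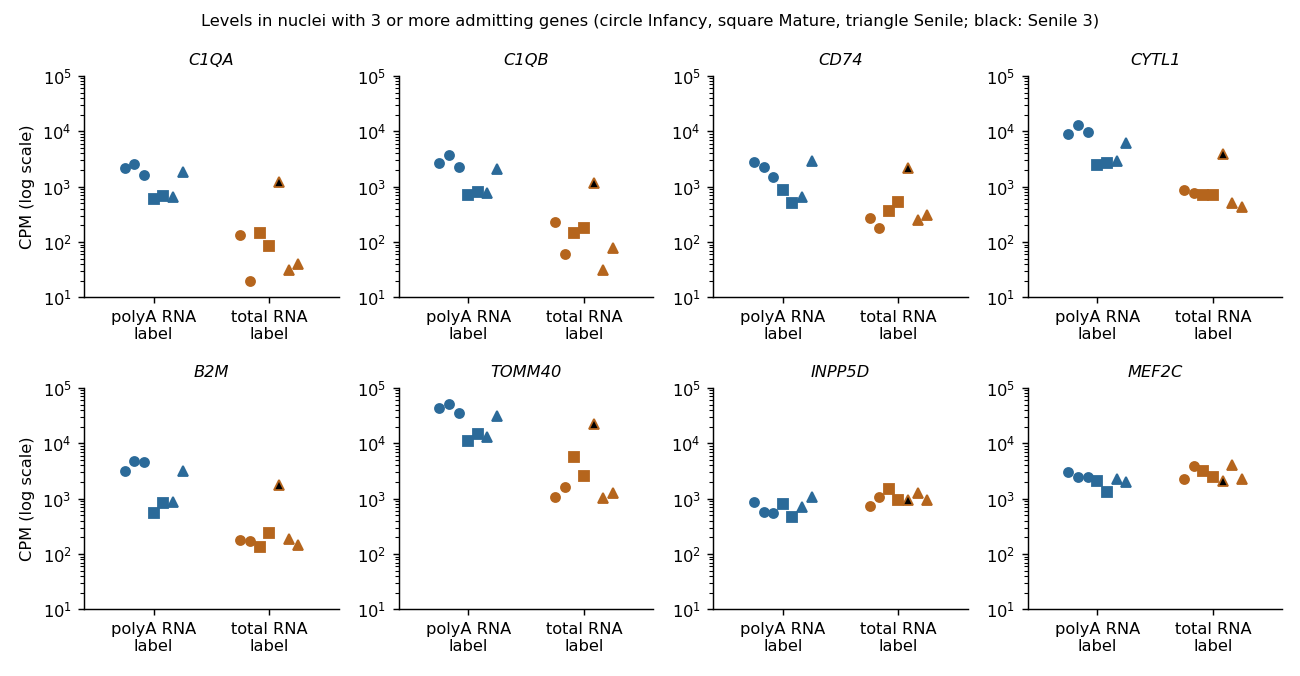
CPM (y axis, log scale) of 8 genes in the microglia-like nuclei of 14 retinas, split by the library's RNA label (x axis); circles are Infancy, squares Mature and triangles Senile, and the black triangle is Senile 3. C1QA lies between 608 and 2555 CPM in the polyA libraries and between 19.9 and 143 in the total RNA libraries other than Senile 3, while INPP5D and MEF2C overlap.

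The share of admitted nuclei was highest in infancy. In infancy it was 1.17%, 0.83%, 0.995%, 1.81% and 1.44% of the nuclei of retinas 1 to 5, with a mean of 1.25% ± 0.386 (SD, n = 5). In the mature stage it was 0.802%, 0.612%, 0.754%, 1.06% and 0.402%, with a mean of 0.727% ± 0.245, and in senility it was 0.647%, 0.470%, 0.566%, 0.614% and 0.607%, with a mean of 0.581% ± 0.0683. All infant retinas lay above all senile retinas, while infant and mature values overlapped. The senile minus infant difference was -0.668 percentage points (2-sided exact permutation p = 0.00794, the smallest that 5 against 5 retinas allow, adjusted p = 0.0238 over 3 comparisons). Counting only admitted nuclei with no UMI of the 23 neuron and photoreceptor genes, it was -0.144 points and no longer passed (adjusted p = 0.143 by the exact test). Mature minus infant gave -0.522 points (p = 0.0317 and adjusted p = 0.0476 by the exact test), and senile minus mature gave -0.146 points (p = 0.278 and adjusted p = 0.278 by the exact test), which became -0.228 without Mature 5 (adjusted p = 0.0357) and -0.0620 without Mature 4 (0.548). The mature comparison was lost when Infancy 1, 3, 4 or 5 or Mature 1, 2, 3 or 5 was left out (differences of -0.381 to -0.585 points, exact permutation adjusted p = 0.0595 to 0.107) and when retinas were permuted within the library label (adjusted p = 0.0600), which left the senile comparison past the threshold (adjusted p = 0.0300). Fewer microglia and fewer microglial nuclei recovered cannot be told apart in such shares.

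The microglia-like nuclei gave the same order (the plot of shares). Their mean share was 0.602% ± 0.102 in Infancy, 0.411% ± 0.156 in Mature and 0.318% ± 0.0759 in Senile retinas (SD, n = 5 each). The infant retinas were at 0.756%, 0.538%, 0.548%, 0.512% and 0.654%, the mature retinas at 0.498%, 0.412%, 0.499%, 0.506% and 0.142%, and the senile retinas at 0.409%, 0.322%, 0.339%, 0.321% and 0.199%. Infant values did not overlap with those of either later stage. Both later stages differed from infancy (exact permutation p = 0.00794, adjusted p = 0.0119 for each), by -0.284 points in senility and -0.190 in the mature stage, and the mature difference was lost without Infancy 1 (adjusted p = 0.0833) or Infancy 5 (0.0714). Neither call held after thinning or with no gene barring a nucleus. The lowest value, in Mature 5, rests on 6 nuclei (95% Wilson interval 0.0650% to 0.309%, counting error only). Without Mature 5 the senile share was also below the mature share, at -0.161 points (p = 0.0159 and adjusted p = 0.0238 by the exact test).

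**Figure D4:**
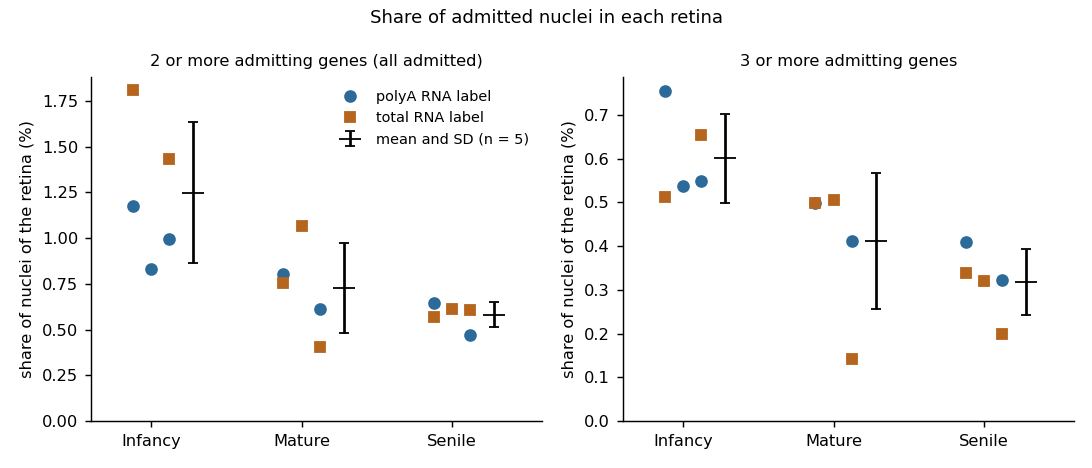
Share of nuclei of each retina (percent, y axis) by stage (x axis) for all admitted nuclei, left, and microglia-like nuclei, right; circles are polyA RNA and squares total RNA libraries, and bars give the mean and SD of 5 retinas. Means go from 1.25% in Infancy to 0.581% in Senile on the left and from 0.602% to 0.318% on the right, and Mature 5 is the lowest point on both sides.

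Several measurements moved with these shares. The lower shares were seen within both library labels: microglia-like nuclei made up 0.614%, 0.455% and 0.366% in the polyA libraries and 0.583%, 0.382% and 0.286% in the total RNA libraries of infancy, maturity and senility. The rule barred more nuclei in the later stages, since a UMI of any of the 5 barring genes was found in 41.7%, 50.2% and 55.9% of all nuclei. Of the nuclei with 3 or more admitting genes, the rule barred 28.5% of those from Infancy, 36.5% of those from Mature and 47.2% of those from Senile retinas. With no gene barring a nucleus, the share with 3 or more admitting genes was 0.845% ± 0.181, 0.659% ± 0.249 and 0.573% ± 0.154 (SD, n = 5 each), and neither senility (exact permutation p = 0.0397, adjusted p = 0.119) nor the mature stage (p = 0.222 and adjusted p = 0.333 by the exact test) passed against infancy. Barring was not tested as a source of the difference.

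Depth was made equal by thinning every nucleus to 1000 UMIs. This left out 2356, 2016 and 3533 nuclei below that depth in the 3 stages, among them 118 of 522 infant, 65 of 310 mature and 58 of 216 senile admitted nuclei. Of the microglia-like nuclei it left out 103 of 251 infant, 50 of 179 mature and 43 of 115 senile ones. The loss was thus uneven between stages, and its part in the thinned differences was not tested. The thinned shares were 0.465% ± 0.230, 0.377% ± 0.226 and 0.319% ± 0.104 (SD, n = 5 each), and senile minus infant was -0.146 points (p = 0.278 and adjusted p = 0.571 by the exact test). With 3 or more admitting genes they were 0.300% ± 0.152, 0.235% ± 0.159 and 0.185% ± 0.0842, with differences from infancy of -0.115 in senility and -0.0648 in the mature stage (adjusted p = 0.540 by the exact test for each). For comparison, Müller glia found by their own genes made up 4.79% ± 0.845, 4.02% ± 0.661 and 3.11% ± 1.01, and astrocytes 1.02% ± 0.379, 0.609% ± 0.457 and 0.591% ± 0.240 of the nuclei.

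No gene passed an adjusted p of 0.05 between stages in edgeR's quasi-likelihood test on counts summed per retina. This held for all admitted nuclei (0 of 3272 genes tested, 0.0%, in each of the 3 comparisons) and for the microglia-like nuclei (0 of 1584, 0.0%). At an unadjusted p under 0.05 there were 150 genes (4.58%) for Senile against Infancy, 199 (6.08%) for Mature against Infancy and 133 (4.06%) for Senile against Mature over all admitted nuclei, and 107 (6.76%), 84 (5.3%) and 67 (4.23%) in the microglia-like nuclei. DESeq2 called 11, 1 and 3 genes over all admitted nuclei and 3, 0 and 3 in the microglia-like nuclei. No gene differed in its stage change between the admitted nuclei and all other nuclei (0 of 3272, 0.0%, and 132, 133 and 129 at an unadjusted p under 0.05), nor between the microglia-like and all other nuclei (0 of 1584, 0.0%, and 126, 93 and 57). With the Cell Ranger version in the edgeR model, 0 genes passed in each comparison in both sets, and 190, 241 and 174 over all admitted nuclei and 117, 82 and 82 in the microglia-like nuclei had an unadjusted p under 0.05. On simulated counts for Senile against Infancy, the test found 92% of 4-fold and 37% of 2-fold changes over all admitted nuclei (3272 genes). In the microglia-like nuclei (1584 genes) it found 81% and 20%. It also called 10 and 7 unchanged genes in these sets. Many genes were changed together there, which makes the adjusted threshold easier to pass. These shares therefore do not show that a lone 4-fold change would be found. In the retinas LINC-CDH5-10, at a log2 fold change of 3.20 for Senile against Infancy over all admitted nuclei, did not pass (edgeR adjusted p = 0.238). The DESeq2 calls included the lens crystallins CRYGC, CRYBB1, CRYBA4 and CRYGB, none of which was tested in edgeR after the filter on low counts. The genes described next are among those of smallest p, and none passed in edgeR in either set after the filter on low counts. With no such filter several of them passed in both sets, among them FKBP5 for Senile against Mature and LINC-CDH5-10, MIA3li3 and ZFP39-AS-22 for Senile against Infancy.

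FKBP5, a co-chaperone that glucocorticoids induce, had its highest mean in the mature stage (the plot of stage levels). In the microglia-like nuclei it stood at 117, 214, 169, 383 and 278 CPM in infancy, 656, 667, 293 and 235 in Mature 1 to 4 and 122, 294, 142, 62.5 and 145 in senility. The mature values overlapped with the infant and the senile values. Over all admitted nuclei its log2 fold change was 1.77 ± 0.367 (SE) for Mature against Infancy (edgeR adjusted p = 0.219) and -1.89 ± 0.420 for Senile against Mature (edgeR adjusted p = 0.462), and in the microglia-like nuclei it was 0.93 ± 0.416 (edgeR adjusted p = 0.861) and -1.73 ± 0.474 (edgeR adjusted p = 0.618). In all other nuclei FKBP5 averaged 6.27 CPM ± 3.40 over the infant, 22.6 ± 23.3 over the mature and 7.56 ± 4.47 over the senile retinas (SD, n = 5 each), and its change in the admitted nuclei was not distinguished from theirs (edgeR adjusted p = 1.00 for the difference in both comparisons).

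CACNA1A, a subunit of P/Q-type calcium channels best known in neurons, was lower in infant microglia-like nuclei. It stood at 66.8, 231, 108, 167 and 126 CPM in infancy, at 384, 340, 335 and 294 in Mature 1 to 4 and at 285, 392, 378, 437 and 317 in senility, with no overlap of infancy with either later stage. Of the genes tested, 1.2% were higher without overlap in senility, and 0.758% in the mature stage, than in infancy. Its log2 fold change was 1.25 ± 0.298 (SE) for Senile against Infancy (edgeR adjusted p = 0.223) and 1.23 ± 0.297 for Mature against Infancy (edgeR adjusted p = 0.390). Over all admitted nuclei it was 0.19 and 0.15, and in all other nuclei CACNA1A stood between 140 and 314 CPM. The neuron and photoreceptor genes summed to a median of 1068, 1237 and 1394 CPM in the microglia-like nuclei of the 3 stages. In the admitted nuclei with no UMI of these genes (581 genes tested) the fold change of CACNA1A was 2.09 for Senile against Infancy (edgeR adjusted p = 0.00684) and 2.26 for Mature against Infancy (edgeR adjusted p = 0.00412).

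LINC-CDH5-10, a feature annotated as non-coding, was higher in senile than in infant microglia-like nuclei without overlap. Its level was 33.4, 0, 0, 35.9 and 106 CPM in infant microglia-like nuclei, 256, 26.2, 134 and 75.6 in Mature 1 to 4 and 591, 343, 118, 219 and 278 in senility. Its log2 fold change for Senile against Infancy was 2.80 ± 0.656 (SE; edgeR adjusted p = 0.223) and over all admitted nuclei 3.20 ± 0.683 (edgeR adjusted p = 0.238, DESeq2 adjusted p = 0.00684). In all other nuclei it was at 0.396 to 1.89 CPM, with means of 0.758 over the infant and 1.39 over the senile retinas. Its change was not distinguished from theirs in the microglia-like nuclei (edgeR adjusted p = 0.584 for the difference) or over all admitted nuclei (0.9999).

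**Figure D5:**
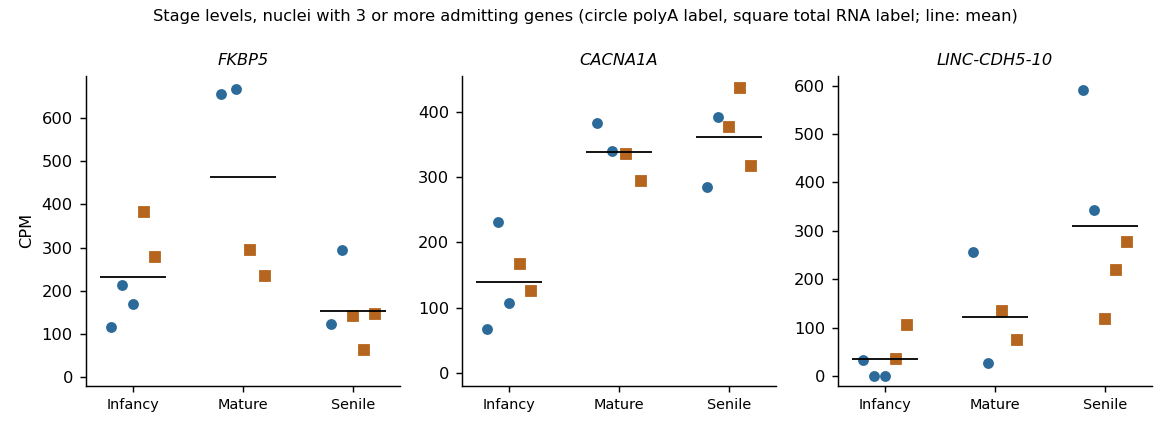
CPM (y axis) of FKBP5, CACNA1A and LINC-CDH5-10 in the microglia-like nuclei of 14 retinas by stage (x axis); circles are polyA RNA and squares total RNA libraries, and lines are stage means. The infant values of CACNA1A, 66.8 to 231 CPM, lie below all later ones, and the senile values of LINC-CDH5-10, 118 to 591 CPM, above all infant ones.

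Among the other genes of smallest p, MIA3li3 led over all admitted nuclei, with log2 fold changes of 2.26 ± 0.401 (SE) for Senile against Infancy (edgeR adjusted p = 0.0785) and 2.20 ± 0.389 for Mature against Infancy (edgeR adjusted p = 0.0757). It passed in both comparisons in DESeq2 (adjusted p = 0.000609 and 0.00213) and in edgeR without Infancy 2 (adjusted p = 0.0233 and 0.0262) or Infancy 5 (adjusted p = 0.0194 and 0.0192). In all other nuclei it stood at 25.3 to 35.0 CPM in infancy and at 109 CPM or more in every later retina, and its change in the admitted nuclei was not distinguished from theirs (edgeR adjusted p = 1.00 for the difference). RCVRN, the photoreceptor calcium sensor recoverin, had a log2 fold change of 1.43 for Senile against Infancy (edgeR adjusted p = 0.310), RNF144B had 1.26 (0.471) and ZFP39-AS-22 had 2.53 (0.238, and 0.0498 in DESeq2). In all other nuclei RCVRN averaged 108 CPM over the infant and 269 over the senile retinas, and ZFP39-AS-22 ranged from 9.84 to 22.2 CPM over the infant and from 27.6 to 125 over the senile ones, both without overlap. Neither change was distinguished from that in the admitted nuclei (edgeR adjusted p = 1.00 for both). The share of all features without overlap was not counted in all other nuclei. RNF144B averaged 51.9 and 62.6 CPM there, with overlap. For Mature against Infancy ARF4-AS-1 had -1.81, SGCZ-AS-5 -2.22 and RTN1 -0.92 (edgeR adjusted p = 0.289 for each), and for Senile against Mature SGCZ-AS-5 had 1.98, MPRIP -1.35 and SLIT2 -1.29 (edgeR adjusted p = 1.00 for each). None of the genes named so far in this paragraph passed the filter on low counts in the microglia-like nuclei, so they were not tested there. In the microglia-like nuclei PLCL2li1 had -0.98 and TOX 1.46 for Senile against Infancy (edgeR adjusted p = 0.223 for both), LORF2li170 had -1.92, ANKRD44-AS-4 -1.46, CD2 -1.55 and FCHSD2-AS-3 -2.04 for Mature against Infancy (edgeR adjusted p from 0.390 to 0.614), and PRKG1 had -2.17 and SAMSN1 0.90 for Senile against Mature (edgeR adjusted p = 0.618 for both). Over all admitted nuclei these were -0.36 for PLCL2li1, 0.20 for TOX, -1.73 for LORF2li170, -0.97 for ANKRD44-AS-4, -1.11 for CD2, -1.27 for FCHSD2-AS-3, -0.15 for PRKG1 and 0.79 for SAMSN1 (edgeR adjusted p from 0.644 to 1.00). ADGRL2, a latrophilin, had 0.49 ± 0.410 (SE) over all admitted nuclei for Senile against Infancy (edgeR adjusted p = 0.999).

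No gene of the 12 lists passed in any comparison. Of 260 distinct genes in the lists, 238 were in the files, and 90 and 86 were tested in all admitted and in microglia-like nuclei. For Senile against Infancy in the microglia-like nuclei, 7 of the 86 list genes tested had an unadjusted p under 0.05 in edgeR. Over all 1584 genes there were 107 (6.76%), and whether the lists held more was not tested. The log2 fold change was negative for P2RY13 (-1.63), RGS10 (-0.65), ABCA1, the cholesterol exporter (-0.67), TAL1, a blood cell transcription factor (-1.14), and HAVCR2 (-1.54), and positive for RUNX2, a transcription factor best known in bone (1.18), and ARHGAP15 (0.84), with edgeR adjusted p from 0.573 to 0.712. Over all admitted nuclei 6 of the 90 list genes tested had such a p, beside 150 of all 3272 genes (4.58%). Values were positive for ARHGAP15 (1.47), the endotoxin receptor TLR4 (0.95), SRGAP2 (0.63), INPP5D (0.76) and LRMDA (0.86) and negative for P2RY13 (-1.43), each at an edgeR adjusted p of 0.991. Medians are given for lists that hold no admitting gene. The phagocytosis, lysosome and lipid genes had a median log2 fold change of -0.50 there (13 tested), beside -0.0045 over all 1584 genes, and of -0.074 over all admitted nuclei (16 tested), beside -0.031 over all 3272. In the microglia-like nuclei the inflammatory genes had 0.16 (5 tested) and the myeloid transcription factors -0.25 (10 tested). Over all admitted nuclei these medians were 0.38 (6 tested) and 0.054 (10 tested).

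For Mature against Infancy in the microglia-like nuclei, the antigen presentation genes had a median of -1.45 (4 tested), beside 0.025 over all genes, and for Senile against Mature 1.23, beside -0.023. Over all admitted nuclei these medians were -1.23 and 1.57 (4 tested). In the microglia-like nuclei C1QB had -1.99 ± 1.09 (SE; edgeR adjusted p = 0.873) and B2M -2.52 ± 1.08 (SE; edgeR unadjusted p = 0.0324, adjusted p = 0.861) for Mature against Infancy. The other list genes at an unadjusted p under 0.05 in that fit were SAMSN1 (-0.85), P2RY12 (-0.90), MAF (-0.62), LCP2 (-0.87), HAVCR2 (-1.54), RGS10 (-0.58) and RUNX2 (1.03), with edgeR adjusted p from 0.614 to 0.861. P2RY12 is an admitting gene, so its level in these nuclei depends in part on the rule. Of all 1584 genes, 84 (5.3%) had such a p. Over all admitted nuclei the list genes with such a p were PIK3R5 (1.13), NFATC2 (0.85), INPP5D (0.67) and B2M (-2.40), with edgeR adjusted p from 0.644 to 0.803. Of all 3272 genes, 199 (6.08%) had such a p. C1QB, CD74 and B2M are among the genes that followed the library label, and 3 of 5 infant against 2 of 4 mature libraries in this fit were labelled polyA RNA. Within the polyA libraries B2M stood at 3171, 4681 and 4608 CPM in infancy and at 560 and 851 in Mature 1 and 2, and within the total RNA libraries at 179 and 172 in Infancy 4 and 5 and at 134 and 235 in Mature 3 and 4. Of 24 genes that change in ageing microglia of other mammals, 7 had no UMI in the microglia-like nuclei. The same 7 were empty or nearly so in all other nuclei too, so their level cannot be read. No proliferation gene passed the filter on low counts.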

How the data were processed

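Nuclei of 15 retinas were sequenced on the 10x platform. The authors deposited, per retina, a matrix of UMI counts per feature and nucleus made with Cell Ranger. The submitters' processing notes name versions 5.0.1 and 7.0.1, while the headers of 7 matrices, those labelled polyA RNA, name 6.1.2. These counts were not normalized. No UMI column was left unused.

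Nuclei were kept and admitted as described in the report, 3 mitochondrial features being in the files. No doublet caller was run. Members and gene lists were chosen with earlier results of these data known. Counts were summed per retina with at least 10 admitted nuclei and tested with edgeR 4.0.16 (quasi-likelihood, TMM, filterByExpr, Benjamini-Hochberg over all genes, stage as the only term) in R 4.3.3. DESeq2 1.42.0 was an alternative. The difference of stage changes between admitted and other nuclei was tested as an interaction with retina as a block. Shares were compared by 2-sided exact permutation of retinas, adjusted over 3 comparisons. Ratios used CPM plus 1. The labels do not tie retinas to animals, while the study describes its retinas as coming from separate donors.

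The naming rule took the 25 genes of highest median ratio to other nuclei (at least 50 CPM in every retina used, no LINC, antisense or numbered copies), genes past the test or, where under 5 passed, the 5 of smallest p per comparison, the admitting and barring genes, the 4 most abundant genes per list, and ADGRL2, called in an earlier result. The text prints only some of the 25 genes and of the 4 genes per list. CD2 levels, nuclei counts of single genes and the genes of the library label split were chosen after their values were seen, as were P2RY13, TAL1, HAVCR2, ABCA1 and B2M within their lists. Replicate numbers were shared between stages. Of 15 same-numbered pairs, 8 had a correlation of deviations over 0.1 (-0.182 to 0.309), and 2 of 15 retinas matched their own number best. The numbers were not taken to pair retinas in the main tests, and were used as a block in an alternative. The test was tried on simulated counts with 200 changed genes. Alternatives were other member sets, RLE scaling, no filter on low counts, blocks, thinning and each retina left out. Gene positions and sequences were not used here. A gene that the naming rule selects is not reported here. Depth limits precision: intervals cover counting error only.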

Additional observations from a re-analysis of the deposited data

Results flagged for a closer look

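Among 147 groups of 4 or 5 retinas, 7 held a value far from the rest of its stage by Dixon's criterion, which chance gives in about 1 of 20 groups. In the microglia-like nuclei these were APBB1IP at 1551 CPM in Infancy 5, SAMSN1 at 645 CPM in Infancy 3, CD2 at 159.9 CPM and RTN1 at 176 CPM in Mature 1, SGCZ-AS-5 at 16.8 CPM in Mature 4 and CX021 at 611 CPM in Senile 1. The share of microglia-like nuclei was 0.142% in Mature 5.

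Nuclei that the rule barred also carried microglial transcripts. Of 306 nuclei with 3 or more admitting genes that had a UMI of a barring gene, 242 (79.1%) had 2 or more of the 9 further microglial genes. ARR3, cone arrestin, barred 232 of the 306, RLBP1, a retinoid carrier of Müller glia, 85, RBPMS, a ganglion cell gene, 49, and GAD1 2. Exactly 1 UMI barred 157 of them, and 136 of these (86.6%) had 2 or more of the further genes. ARR3 had a UMI in 35.7% of all nuclei outside the class.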

How the results depend on the processing

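The lower senile share kept its direction in all alternatives but lost its call with no UMI of the neuron list allowed (-0.144 points, adjusted p = 0.143), after thinning (-0.146, and -0.115 with 3 or more admitting genes) and with 3 or more genes and no barring (-0.272). The mature share against infancy lost it in the same settings (-0.141, -0.0885, -0.0648 and -0.186), with 2 or more of the further genes (-0.179) and within the library label (-0.522). Leaving out 1 retina gave -0.773 to -0.527 for Senile against Infancy, -0.626 to -0.381 for Mature against Infancy and -0.228 to -0.0620 for Senile against Mature, and with 3 or more genes -0.306 to -0.245, -0.214 to -0.123 (-0.152 without Infancy 1 and -0.177 without Infancy 5, both no longer called) and -0.161 to -0.0634, the last called only without Mature 5. Pairing retinas by number, as a replicate block, cannot give p below 0.0625: the differences stayed -0.668 and -0.522, and -0.284 and -0.190 with 3 or more genes (adjusted p = 0.0938 each), and for Senile against Mature -0.146 (0.3125). The block called 0 genes over all admitted nuclei and 2, 0 and 0 with 3 or more genes, and 2 of 15 retinas matched their own number best.

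Genes called (Senile against Infancy, Mature against Infancy, Senile against Mature; 0 in edgeR as reported) numbered 71, 135 and 47 with no filter on low counts (49, 42 and 25 with 3 or more genes), 11, 1 and 3 with DESeq2 (3, 0 and 3), and 2, 1 and 0 without neuron UMIs. Leaving out 1 retina gave 0 to 2, 0 to 1 and 0 to 1 (0 to 1, 0 and 0 to 1 with 3 or more genes). Genes whose change differed from other nuclei numbered 37, 37 and 11 with no filter and 4, 1 and 0 without neuron UMIs. The median log2 ratio over 25 genes, 5.19 over all admitted nuclei, was 6.58 with 3 or more genes, 6.95 without neuron UMIs and 4.05 with 10 CPM added. Of 1058 alternative fold changes of named genes, 998 kept direction and side, 39 passed and 21 reversed: CACNA1A (-0.0240) and TOX (-0.0074) with no filter and TOX leaving out 1 retina (-0.0235 without Senile 5, up to 0.380) for Senile against Infancy, PRKG1 leaving out 1 retina (-0.308 to 0.0758, the latter without Senile 2) and ADGRL2 for Senile against Mature (-0.17 with 3 or more genes, and in that set -0.22 with DESeq2 and -0.30 with no filter, -0.135 to 0.296 leaving out 1 retina and -0.563 to 0.284 with 3 or more genes, where it was -0.178, -0.176, -0.124, -0.196, -0.333, -0.0538, -0.0918 and -0.494 without Infancy 1, Infancy 2, Mature 1, Mature 3, Senile 1, Senile 2, Senile 3 and Senile 5). The cause was not tested. On simulated counts 2-fold changes were mostly missed.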
